A study of Homo sapiens with 9 samples.

Results

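Expression of 9 genes of the extracellular matrix was described in 3 related human ovarian carcinoma cell lines. The genes were SPON1, RELN, SPARC, FN1, COL5A1, COL6A1, COL6A2, LAMB3 and FBLN2, and they are 9 of the 18852 genes measured. They were found by symbol in the probe annotation, with every probe of a gene kept, which gave 18 of 48803 probes. The lines were parental IGROV-1, which is sensitive to the DNA-crosslinking drug cisplatin, IGROV-1/Pt1 (Pt1), a resistant variant selected from them with cisplatin, and IGROV-1/OHP (OHP), a variant labelled as resistant to the related drug oxaliplatin. The series description names cisplatin as the selecting drug for OHP too, so the drug behind that line is uncertain, and whether a resistant line is 1 clone is not given in the sources used here. Cells were harvested with trypsin during exponential growth, and RNA from 3 independent samples of each line was measured on Illumina bead arrays, which gave 9 arrays. The genes were selected on their intensity differences between the lines on these same arrays, so their values are a description and carry no test. Where p-values are given for other genes, they measure the spread between the samples of a line.

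The extracellular matrix is the network of secreted proteins that cells attach to. Fibrillar collagens form fibres, collagen VI forms beaded microfilaments near the cell surface, and laminins, trimers of an alpha, a beta and a gamma chain, build the basement membrane under epithelia. Fibronectin and the fibulins join these networks to each other and to integrins, while matricellular proteins such as SPARC and the spondins modulate adhesion without forming fibres themselves. Ovarian carcinoma spreads over the mesothelial lining of the abdomen, where tumour cells meet such a matrix.

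The deposited values are array intensities that had been normalized between arrays, with a median of 228.2 to 228.34 on every array. A background ceiling of 302.19 intensity units was set at a high percentile of the values of 431 probes for olfactory receptor genes, which are not expected in these cells. Between 10300 and 10516 genes lay above it on each array, and precision is limited by having 3 arrays a line. OHP array 2 stood apart. Its correlation across genes with the other OHP arrays was 0.942 and 0.926, against 0.99 between OHP arrays 1 and 3, and member values that it moves are given with and without it. The ovarian epithelial marker PAX8 was above the ceiling on all arrays of each line, as were KRT7 and KRT19, while EPCAM and CDH1 were at or under it on all 3 Pt1 arrays and WT1 on all 9. KRT8 and KRT18 were above it on all parental and Pt1 arrays and on 2 OHP arrays. MSLN read 271 to 335 in parental, 11405 to 12293 in Pt1 and 7786 to 17867 in OHP cells. The summed intensity of this list of 10 genes was 102296 to 108377 in parental and 57276 to 60639 in Pt1 cells. On OHP arrays 1, 2 and 3 it was 54862, 69977 and 45476. Of 12 fibroblast markers, 9 were at or under the ceiling on every parental array and every Pt1 array and 8 on every OHP array, among them DCN, LUM, COL1A2, COL3A1, PDGFRB and FAP. The summed intensity of the fibroblast list was 7342 to 7665 in parental, 4258 to 4526 in Pt1 and 4840 to 6031 in OHP cells, carried by ACTA2, THY1 and PDGFRA. The endothelial list, with PECAM1 and VWF above the ceiling in each line and KDR, TEK and CLDN5 in none, summed to 1970 to 3594 in parental and 2870 to 3768 in Pt1 cells, and to 5396, 10866 and 4824 on OHP arrays 1, 2 and 3. The leucocyte list, with PTPRC, CD3E and CSF1R never above the ceiling, summed to 4467 to 4804 in parental and 2154 to 2231 in Pt1 cells, and to 2371, 7336 and 2068 on OHP arrays 1, 2 and 3. The part of these markers in the values below was not tested.

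The regions around the start sites of 3 members are shown because each of these genes was clearly above background in only 1 line, or highest there. RELN stood for the parental line, LAMB3 for Pt1 and SPARC for OHP. The windows run from 250 bases before the annotated start to 50 after it, are taken from RefSeq on GRCh38.p14, all on the minus strand, and are written 5′ to 3′ with each CpG dinucleotide, the site of DNA methylation in vertebrates, in capitals. They lie at chr7:103989609-103989908 (RELN), chr1:209652376-209652675 (LAMB3) and chr5:151686866-151687165 (SPARC).
RELN: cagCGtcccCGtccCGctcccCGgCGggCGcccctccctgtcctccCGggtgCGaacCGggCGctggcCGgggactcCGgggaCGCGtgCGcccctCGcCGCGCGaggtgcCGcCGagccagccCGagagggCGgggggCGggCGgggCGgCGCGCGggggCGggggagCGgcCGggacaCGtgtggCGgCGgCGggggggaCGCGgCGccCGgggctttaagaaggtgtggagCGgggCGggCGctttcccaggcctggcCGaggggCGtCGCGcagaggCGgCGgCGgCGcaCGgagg
LAMB3: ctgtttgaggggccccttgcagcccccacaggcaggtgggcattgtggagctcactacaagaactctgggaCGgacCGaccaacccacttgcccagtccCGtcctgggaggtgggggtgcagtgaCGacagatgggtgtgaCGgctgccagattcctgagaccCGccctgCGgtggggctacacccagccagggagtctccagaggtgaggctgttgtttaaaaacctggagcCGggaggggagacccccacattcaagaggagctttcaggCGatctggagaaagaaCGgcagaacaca
SPARC: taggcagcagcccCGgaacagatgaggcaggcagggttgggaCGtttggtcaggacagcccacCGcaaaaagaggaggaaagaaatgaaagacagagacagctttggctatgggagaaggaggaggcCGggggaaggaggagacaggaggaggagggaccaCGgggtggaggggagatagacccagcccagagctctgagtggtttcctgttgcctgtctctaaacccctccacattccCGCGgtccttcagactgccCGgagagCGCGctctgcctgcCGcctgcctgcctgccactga

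The RELN window holds 52 CpG dinucleotides, more than 99.2% of the 35116 promoter windows in the same table, whose median is 14. The LAMB3 and SPARC windows hold 10 and 11, close to that median. Windows were found for 7 of the 9 members, and the CpG count was 36 for COL5A1 and COL6A2, 38 for FN1 and 43 for FBLN2. SPON1 and COL6A1 had no window. LAMB3 has 3 windows in the table and COL5A1 and FBLN2 have 2 each, of which the window at the annotated gene start was used. The GC box letters GGGCGG, searched on both strands with overlapping matches counted, occur 6 times in the RELN window, 7 times in that of FBLN2, 6 times in that of FN1, once in that of LAMB3 and not in that of SPARC, and 45% of all windows hold them. The TATA box letters TATAAA occur among the 7 windows in that of COL6A2 alone, 32 bases before the start, and in 11.5% of all windows. The AP-1 letters TGANTCA occur in none of the 7 and in 7.71% of all windows. Such matches describe the letters of the reference genome, and DNA methylation and factor binding were not measured.

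SPON1 encodes F-spondin, a secreted protein with thrombospondin repeats that was first described in the floor plate of the spinal cord. Its probe read 30569, 15159 and 19513 intensity units on parental arrays 1, 2 and 3 and 17065, 14733 and 15104 on the Pt1 arrays. On the OHP arrays it read 244, 226 and 206, all at or under the background ceiling. Parental and Pt1 cells thus overlapped, at -0.42 ± 0.25 (SE) for Pt1 minus parental on the log2 scale, whereas every OHP array lay far below both. Against the ceiling, SPON1 was at least 68.9-fold lower in OHP than in parental cells and at least 51.6-fold lower than in Pt1 cells. Leaving out OHP array 2 kept the fitted log2 difference from parental cells at -7.35 ± 0.25, next to -7.34 ± 0.25 with it. In bulk RNA, fewer cells that express a gene and less RNA per cell cannot be told apart.

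RELN encodes reelin, a large secreted glycoprotein that guides neuronal migration through the lipoprotein receptors VLDLR and LRP8. Its brighter probe read 5808, 4353 and 4772 on the parental arrays, 240, 229 and 238 on the Pt1 arrays and 348, 176 and 263 on OHP arrays 1, 2 and 3. Only parental cells were thus clearly above background, since all Pt1 arrays and OHP arrays 2 and 3 were at or under the ceiling, and OHP array 1 was just above it. RELN was at least 16.4-fold lower in Pt1 than in parental cells, and the fitted log2 difference of OHP was -5.02 ± 0.35, or -4.57 ± 0.20 without OHP array 2. The second probe, annotated to another RELN transcript, read 671, 365 and 794 in parental cells and stayed between 239 and 300 on the 6 resistant arrays. It also put each resistant line below parental cells, by at least 1.92-fold in both comparisons, with no overlap between arrays. The mean of the 2 probes gave smaller log2 differences of -3.38 for Pt1 and -3.22 for OHP.

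SPARC, also called osteonectin, binds collagen and modulates cell adhesion. Its probe was at or under the ceiling on all parental arrays (179, 190 and 213) and all Pt1 arrays (210, 221 and 185). OHP arrays 1, 2 and 3 read 1000, 250 and 778, so that 2 of the 3 were above background and array 2 was not, although it lay above every parental and Pt1 array. SPARC was at least 1.92-fold higher in OHP than in either other line, a bound that takes in array 2. The fitted log2 difference of OHP from parental cells was 2.23 ± 0.55 on 9 arrays and 3.02 ± 0.21 without OHP array 2. OHP arrays 1 and 3 thus carry the difference, and the remaining OHP array has only a bound.

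FN1 encodes fibronectin, the matrix glycoprotein that binds integrins through an RGD motif. All 3 of its probes were no higher than the ceiling on any of the 9 arrays, between 158 and 243 intensity units. No fold change is therefore given for FN1 in any comparison.

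COL5A1 encodes the alpha 1 chain of collagen V, which sits inside collagen I fibrils and limits their diameter. It was above background on all 9 arrays, at 1069, 1269 and 945 in parental, 1310, 1188 and 1358 in Pt1 and 2221, 3914 and 2350 in OHP cells. Parental and Pt1 arrays overlapped, and all OHP arrays lay above both. The log2 difference was 1.41 ± 0.24 for OHP minus parental and 1.15 ± 0.24 for OHP minus Pt1, and these became 1.15 ± 0.18 and 0.88 ± 0.18 without OHP array 2, the highest of the 9.

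COL6A1 and COL6A2 encode the alpha 1 and alpha 2 chains of collagen VI, which assemble with an alpha 3 chain, and they lie next to each other on chromosome 21 among the genes measured. COL6A1 read 10187, 17247 and 10087 in parental, 2178, 2202 and 2338 in Pt1 and 3202, 11032 and 2749 in OHP cells. The Pt1 arrays were all below the parental arrays, OHP arrays 1 and 3 were also below them, and OHP array 2 lay within the parental range. The log2 difference was -2.49 ± 0.47 for Pt1 and -1.42 ± 0.47 for OHP against parental cells, and without OHP array 2 the latter was -2.06 ± 0.23. The difference of OHP from Pt1 shrank from 1.07 ± 0.47 to 0.42 ± 0.23 without that array. OHP array 2 is also the array on which the leucocyte and endothelial lists above were highest. On it CD68 read 5883 and VWF 9604, most of each sum. PTPRC, CD3E, CSF1R, KDR, TEK and CLDN5 were at or under the ceiling there, and a part of other cells was not tested.

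The brightest COL6A2 probe covered a smaller range. It read 1535, 1753 and 1366 in parental, 825, 872 and 867 in Pt1 and 1021, 2030 and 672 in OHP cells. The Pt1 arrays lay below the parental ones, and for this probe OHP array 2 was the highest of the 9. The log2 difference was -0.93 ± 0.36 for Pt1 and -0.52 ± 0.36 for OHP against parental cells, the latter -0.99 ± 0.21 without OHP array 2. For OHP against Pt1 the sign depended on that array, at 0.41 ± 0.36 with it and -0.06 ± 0.21 without it. A second COL6A2 probe annotated to the same transcript did not follow, with 505 to 629 in parental, 524 to 744 in Pt1 and 427 to 590 in OHP cells, all lines overlapping. The other probe, annotated to another transcript, was not above background on any array, and the mean of the 3 probes put Pt1 at -0.31 against parental cells.

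LAMB3 encodes the beta 3 chain of laminin-332, which anchors epithelial cells to the basement membrane. Its brightest probe read 1259, 760 and 1159 in parental, 3596, 6371 and 5754 in Pt1 and 1478, 1152 and 1285 in OHP cells. Every Pt1 array lay above all arrays of the other two lines, which overlapped each other. The log2 difference was 2.41 ± 0.28 for Pt1 minus parental, -2.05 ± 0.28 for OHP minus Pt1 and 0.36 ± 0.28 for OHP minus parental. The other two LAMB3 probes were not above background on any of the 9 arrays, between 175 and 273. With all probes averaged, the Pt1 difference from parental cells was 1.15.

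FBLN2 encodes fibulin-2, which bridges basement membrane and elastic fibre proteins. Its brightest probe read 253, 234 and 239 in parental, 327, 463 and 420 in Pt1 and 268, 245 and 219 in OHP cells. Only the Pt1 arrays were above background, and they lay above all others. FBLN2 was at least 1.32-fold higher in Pt1 than in parental or OHP cells. A second probe for the same transcript gave 325, 379 and 416 in Pt1 and 201 to 262 elsewhere, a bound of 1.23-fold, and the remaining probe, for another transcript, never exceeded the ceiling. The level in Pt1 was close to the ceiling by both probes.

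**Figure D1:**
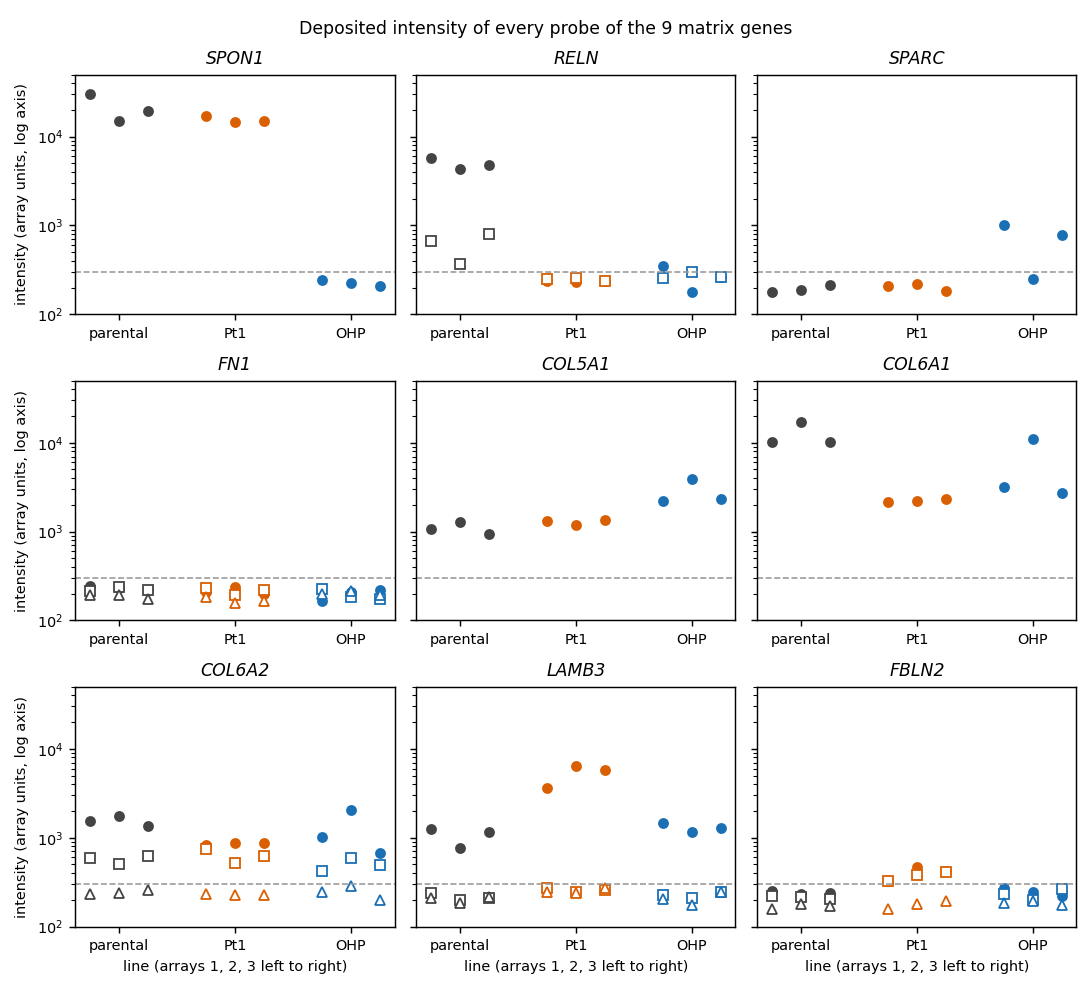
Deposited intensity (log axis) of every probe of the 9 genes on arrays 1 to 3 of each line. Filled circles are the probe used in the fit, open squares and triangles the other probes, and the dashed line is the background ceiling of 302.19. SPON1 drops below the line in OHP, RELN is high in parental cells, SPARC appears on OHP arrays 1 and 3, and FN1 stays under the line.

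In the order of their levels the members fell into several patterns, read from whether the arrays of 2 lines overlap. Pt1 alone stood apart, as the highest line, for LAMB3 and FBLN2. OHP alone stood apart for SPON1 as the lowest and for SPARC and COL5A1 as the highest, and in each of these 3 genes the parental and Pt1 arrays overlapped. Parental cells stood alone for RELN as the highest line, with the resistant lines overlapping at background. For COL6A1 the order was parental above Pt1, with OHP above Pt1 and overlapping parental cells through array 2. Between arrays of the same number, COL6A1 was lower in OHP than in parental cells for all 3 numbers, although the labels give no pairing. For COL6A2 parental lay above Pt1, and OHP overlapped both.

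In a model fitted over all genes, 4 of the 9 members had adjusted p under 0.05 in each comparison. They were RELN, COL6A1, LAMB3 and FBLN2 for Pt1 against parental, where 9.88% of all genes passed, and SPON1, RELN, SPARC and COL5A1 for OHP against parental, where 5.41% did. For OHP against Pt1 they were SPON1, LAMB3, FBLN2 and COL5A1, with 7.59% of all genes passing. The arrays of the 2 lines did not overlap for 5, 4 and 6 members in the same order, next to 39.4%, 18.6% and 27.8% of all genes. Since the members were chosen with these comparisons in view, nothing is read from these counts. The comparisons share arrays in pairs. The median log2 difference of the 9 members was -0.18, -0.42 and 0.11, next to -0.02, -0.01 and 0.01 over all genes. These medians fall on FN1, FN1 and RELN, whose values there lie at or near background, and they describe no shift of the members.

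**Figure D2:**
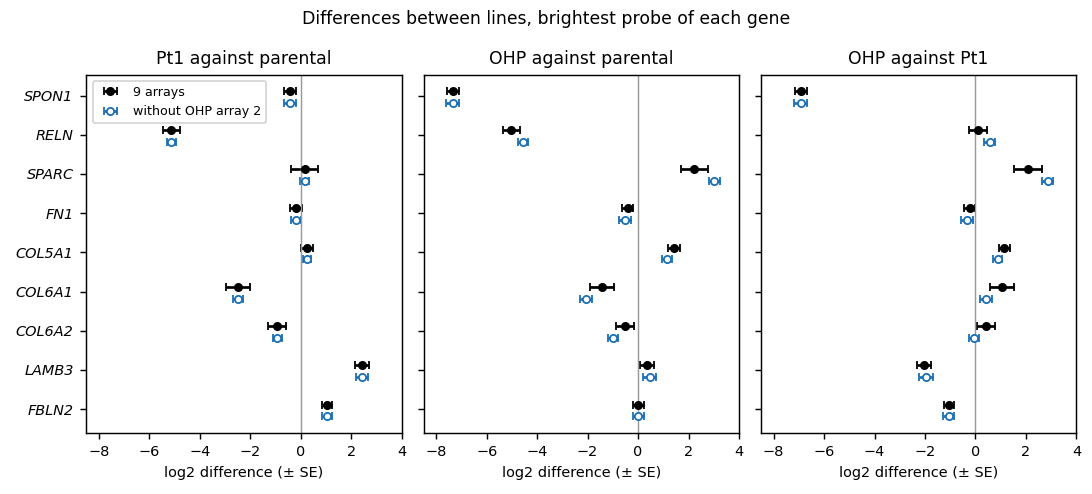
Log2 differences (± SE from the fit) of the brightest probe of each member for Pt1 and for OHP against parental cells and for OHP against Pt1. Black points use 9 arrays and open blue points leave out OHP array 2. The largest value is SPON1 in OHP against parental cells, at -7.34, and the points that move most without that array are SPARC and COL6A1 in both OHP comparisons.

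The genes with patterns most like each member were sought by Pearson correlation of log2 values over the 9 arrays, among 10699 other genes above the ceiling on all arrays of at least 1 line. SPARC and FN1 did not meet that condition. The 9 points come from 3 lines with 3 arrays each, so a high r mostly reflects the differences between lines. For SPON1 the closest were ZMYM6, MPDU1 and ADGRG6, at r = 0.993, 0.989 and 0.989. ZMYM6 read 2544 to 3761 in parental, 3201 to 3679 in Pt1 and 289 to 345 in OHP cells. For RELN they were ACTA2, the smooth muscle actin, CDH17, an intestinal cadherin, and FAM136A, at r = 0.996, 0.995 and 0.993. CDH17 read 8423 to 12788 in parental, 271 to 311 in Pt1 and 247 to 451 in OHP cells.

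COL6A1 was most like MLXIPL, a glucose-responsive transcription factor, ZDHHC11 and SIRPA (r = 0.996, 0.992 and 0.989). MLXIPL read 4669 to 10616 in parental, 657 to 740 in Pt1 and 878 to 5319 in OHP cells. COL6A2 was closest to MRPS16, SRRM2-AS1 and ADH4, at r = 0.988, 0.987 and 0.986. COL5A1 was closest to ANKRD24, LIMCH1 and ASAP1 (r = 0.989, 0.987 and 0.982). LAMB3 was closest to POLE3, UTP6 and MAMDC2, at r = 0.975, 0.974 and 0.973, and FBLN2 to MOB3B, LAMB3 and CTU2, at r = 0.970, 0.959 and 0.959. LAMB3 is the single member named among the 3 closest genes of another.

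Genes beside the members on the chromosome were read as a measure that the choice of members did not use. This step was added after the members' values were seen. Up to 5 measured protein-coding genes on each side were taken from the order of the reference gene table, 80 genes in all after members were set aside. Of these 13.8% passed the test for Pt1 against parental, 6.25% for OHP against parental and 7.5% for OHP against Pt1, next to 9.88%, 5.41% and 7.59% of all genes. Around SPON1 on chromosome 11, 0 of 10 neighbours passed limma's test in either comparison of OHP, with 0 and 3 at an unadjusted p under 0.05. In Pt1 against parental, 1 of the 10 passed, CYP2R1 at 0.60 ± 0.16 (adjusted p = 0.04997), with 4 at an unadjusted p under 0.05. That call ended without any 1 of the parental or Pt1 arrays or OHP array 1 (adjusted p up to 0.183). The nearest measured genes on its sides, FAR1 and RRAS2, stood at -0.15 ± 0.29 (adjusted p = 0.885) and 0.21 ± 0.53 (adjusted p = 0.913) in OHP against parental cells. Around RELN on chromosome 7, 0 of 10 passed in any comparison, with 3 at an unadjusted p under 0.05 for Pt1 against parental, 0 for OHP against parental and 1 for OHP against Pt1.

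Against parental cells the neighbourhood of FN1 held the most calls, although FN1 itself was at background. In Pt1 MARCHF4 rose and SPAG16, PECR and TMEM169 fell, 4 of 10, and in OHP SPAG16, ABCA12 and TMEM169 fell, 3 of 10. Of these, ABCA12 was not above background on any array. SPAG16 and TMEM169 were at or under the ceiling on all Pt1 and OHP arrays, with bounds of 1.36-fold and 1.26-fold in both lines. MARCHF4 was above it on 2 Pt1 arrays and on no parental array. Calls passed for 2 of 10 neighbours of COL5A1 (PIERCE1 higher, OLFM1 lower) and 1 of 10 of LAMB3 (CD34 higher) in Pt1, and for 1 of 10 of COL5A1 (OLFM1 lower) and 1 of 10 of FBLN2 (WNT7A lower) in OHP, each against parental cells. With 1 array left out, the Pt1 calls of TMEM169 (any 1 parental or Pt1 array, adjusted p up to 0.113) and MARCHF4 (Pt1 array 3, 0.0505) ended. The OHP calls of ABCA12 and WNT7A (any array but OHP array 2, up to 0.181 and 0.157) and OLFM1 (any parental array, Pt1 array 3, OHP array 1 or 3, up to 0.110) also ended.

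Around SPARC on chromosome 5, 0 of 10 neighbours passed for OHP against parental cells, with 2 at an unadjusted p under 0.05, and SLC36A1 rose in Pt1 by 0.67 ± 0.17 (adjusted p = 0.0371). The COL6A1 and COL6A2 neighbourhood held another collagen, COL18A1, whose C-terminal fragment is endostatin. COL18A1 fell by 1.35 ± 0.33 in Pt1 (adjusted p = 0.0289) and stood at 0.03 ± 0.33 in OHP against parental cells (adjusted p = 0.983). Its OHP arrays read 7161, 17536 and 6976, again highest on array 2, against 8226 to 10418 in parental and 3361 to 4134 in Pt1 cells. Without any 1 of the parental or Pt1 arrays COL18A1 and SLC36A1 lost their calls in Pt1 (adjusted p up to 0.114 and 0.145). LSS, of the same neighbourhood as COL18A1, fell by 1.15 ± 0.24 in Pt1 (adjusted p = 0.0137), a call that ended without parental array 2 or 3 or Pt1 array 2 or 3 (up to 0.0718).

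Partners of the members, the chains they assemble with and their receptors, were examined whatever their result. Values are given for partners among the 13 measured. COL6A3, the alpha 3 chain of collagen VI, was no higher than the ceiling on any of the 9 arrays, at 187 to 243. Of the other collagen V chains, COL5A3 read 1011 to 1368 in parental cells and fell by 2.05 ± 0.21 in Pt1 (adjusted p = 0.000241) and fell by 2.08 ± 0.21 in OHP (adjusted p = 0.000370). COL5A2 lay above background in Pt1 alone, at 477 to 522, at least 1.65-fold higher than in parental cells (adjusted p = 0.00390) and than in OHP cells (adjusted p = 0.000813). The collagen V chains thus differed in which line held the highest level, COL5A1 in OHP, COL5A2 in Pt1 and COL5A3 in parental cells.

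The reelin receptors were measured well above background in all lines. VLDLR stood at -0.62 ± 0.36 in Pt1 (adjusted p = 0.379) and -0.55 ± 0.36 in OHP (adjusted p = 0.556) against parental cells, and LRP8 at -0.20 ± 0.17 (adjusted p = 0.574) and -0.60 ± 0.17 (adjusted p = 0.0909). Without OHP array 2, VLDLR passed in Pt1 (adjusted p = 0.0302) and LRP8 in OHP (adjusted p = 0.0306). DAB1, an adaptor of the reelin pathway, was not above background on any array. APP, the amyloid precursor protein that F-spondin binds, stood at 0.99 ± 0.70 in Pt1 (adjusted p = 0.478) and -0.29 ± 0.70 in OHP (adjusted p = 0.911), with 9333, 1850 and 16328 on OHP arrays 1, 2 and 3. Without OHP array 2, APP passed in Pt1 (adjusted p = 0.0255).

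Of the 6 integrin chains among the partners, ITGAV and ITGA6 passed with all arrays. ITGAV rose by 1.64 ± 0.44 in Pt1 (adjusted p = 0.0451), whereas the fibronectin receptor chains ITGA5 and ITGB1 stood at -0.88 ± 0.48 (adjusted p = 0.339) and -0.56 ± 0.19 (adjusted p = 0.111). ITGA6 and ITGB4, which pair as a receptor for laminin-332, stood at -0.71 ± 0.17 (adjusted p = 0.0273) and -1.34 ± 0.37 (adjusted p = 0.0540) in Pt1, and at -1.22 ± 0.17 (adjusted p = 0.00245) and -1.08 ± 0.37 (adjusted p = 0.164) in OHP. ITGA3, another laminin receptor chain, stood at 0.13 ± 0.30 and -0.02 ± 0.30 (adjusted p = 0.868 and 0.987). The ITGA6 value rests on 1 of 3 probes, and with all probes averaged its Pt1 difference turned to 0.01 (adjusted p = 0.972) and its OHP call ended at adjusted p = 0.0501. With 1 array left out, ITGAV lost its call without any 1 of the parental or Pt1 arrays or OHP array 1 (adjusted p up to 0.172) and ITGA6 its Pt1 call without any 1 of the parental or Pt1 arrays (up to 0.115), while ITGA5, ITGB1 and ITGB4 passed in Pt1 without OHP array 2 (adjusted p = 0.00185, 0.0348 and 0.00065).

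The other genes of the matrix, 226 in 12 lists taken from textbook knowledge, gave 218 measured genes. The lists were chosen with earlier results of these data known, so the shares below are a description and no test of the matrix. For Pt1 against parental cells 19 rose and 19 fell, 17.4% of them, where 4.15% of all genes were called higher and 5.73% lower. For OHP against parental cells 12 rose and 17 fell (13.3%), where 1.75% of all genes were called higher and 3.67% lower. For OHP against Pt1, 12 were higher and 17 lower (13.3%), next to 3.51% and 4.07% of all genes. Their median log2 difference was -0.07, 0.03 and 0.07, against -0.02, -0.01 and 0.01 over all genes. Among the arrays left out 1 at a time, OHP array 2 moved the counts most, to 75, 62 and 45, and were 19 for OHP against parental without parental array 3 and 18 to 19 for OHP against Pt1 without any 1 of the Pt1 arrays.

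Of the collagens called in Pt1 against parental cells, COL5A2 was the only 1 that rose. Of 10 fibrillar collagens, COL5A2 rose and COL5A3 fell, as given above. Of 12 basement membrane and network collagens, 4 fell in Pt1 and 0 rose. COL7A1, which forms anchoring fibrils, fell by 2.11 ± 0.51 (adjusted p = 0.0302), and COL4A2, a chain of collagen IV, fell by 1.30 ± 0.25 (adjusted p = 0.00914). COL4A5, another collagen IV chain, was at least 1.61-fold lower in Pt1 (adjusted p = 0.000161) and in OHP (adjusted p = 0.000139), the only 1 of the 12 to pass in OHP against parental cells. Against Pt1, OHP was higher in COL4A2 by 1.59 ± 0.25 (adjusted p = 0.00371) and in COL18A1 by 1.38 ± 0.33 (adjusted p = 0.0319). Of 15 other collagens, 0 passed limma's test in Pt1 against parental (1 at an unadjusted p under 0.05), while COL16A1 rose by 1.82 ± 0.32 in OHP (adjusted p = 0.00964) and COL23A1 was lower in OHP than in Pt1 by -0.93 ± 0.25 (adjusted p = 0.0498). COL19A1, named after its value was seen, passed as lower in OHP but was not above background on any of the 9 arrays.

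Of 13 laminins and basement membrane linkers, NID2, nidogen-2, alone passed in Pt1 and fell by 1.47 ± 0.27 (adjusted p = 0.00723). In OHP against parental 0 of the 13 passed (3 at an unadjusted p under 0.05), and HSPG2, perlecan, was at least 1.27-fold higher in OHP than in Pt1 (adjusted p = 0.0461). Of 17 fibulins and elastic fibre genes, 2 fell in Pt1. LTBP4, which stores latent TGF-beta, fell by 1.92 ± 0.37 (adjusted p = 0.00984), and EMILIN2 was at least 1.77-fold lower in Pt1 (adjusted p = 3.43e-05) and in OHP (adjusted p = 9.42e-05). LTBP3 was lower in OHP than in Pt1, at -1.29 ± 0.23 (adjusted p = 0.00879), a call that ended at adjusted p = 0.123 with all its probes averaged. With 1 array left out, calls ended for COL7A1 in Pt1 and COL18A1 in OHP against Pt1 (any 1 parental or Pt1 array, adjusted p up to 0.126 and 0.128), COL23A1 and HSPG2 (any array but OHP array 2, up to 0.188 and 0.162) and LTBP4 (Pt1 array 2, 0.0539).

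Of 33 matricellular genes, 3 rose and 3 fell in Pt1, and 4 were called higher and 3 lower in OHP. Of the 4, CCN5, named after its value was seen, was not above background on any of the 9 arrays. CCN3, a growth-restraining member of the CCN family, read 4711 to 8504 in parental cells and was at least 22.5-fold lower in Pt1 (adjusted p = 1.16e-06). In OHP, at 407 to 596, it fell by 4.09 ± 0.27 (adjusted p = 1.69e-05), and it was at least 1.62-fold higher than in Pt1 cells (adjusted p = 0.00260). SPP1, osteopontin, fell by 2.35 ± 0.31 in Pt1 (adjusted p = 0.00111) and fell by 2.61 ± 0.31 in OHP (adjusted p = 0.000882). CCN2, also known as CTGF, was at least 1.97-fold higher in Pt1 (adjusted p = 0.00559), and FSTL1, a secreted relative of SPARC, rose by 1.46 ± 0.35 in Pt1 (adjusted p = 0.0272) and by 1.91 ± 0.35 in OHP (adjusted p = 0.0115).

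SPOCK1, a testican, was above background in OHP alone, at least 2.33-fold higher than in parental (adjusted p = 0.000748) and than in Pt1 cells (adjusted p = 0.000590). SMOC2 was at least 3.26-fold lower in OHP than in parental (adjusted p = 1.56e-05) and at least 2.13-fold lower than in Pt1 cells (adjusted p = 8.36e-05). THBS4, a thrombospondin, was at least 1.19-fold lower in OHP than in Pt1 (adjusted p = 0.00450). Of 14 proteoglycans, VCAN alone passed. VCAN encodes versican, which binds hyaluronan, and read 303 to 402 in parental, 1756 to 2196 in Pt1 and 425 to 594 in OHP cells, a rise of 2.85 ± 0.21 in Pt1 (adjusted p = 3.11e-05) and a level lower in OHP than in Pt1 (log2 difference -2.21 ± 0.21, adjusted p = 0.000167). In OHP against parental 0 of the 14 passed, with 2 at an unadjusted p under 0.05. The FSTL1 call ended in Pt1 without any 1 of the parental or Pt1 arrays (adjusted p up to 0.112) and in OHP without parental array 2 or 3 (up to 0.0586).

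Among 27 enzymes of collagen processing, 2 rose and 1 fell in Pt1 and 2 fell in OHP. P3H2, which hydroxylates prolines of basement membrane collagens, moved opposite ways in the resistant lines. It read 760 to 1010 in parental and 5917 to 6279 in Pt1 cells, and 269, 553 and 267 on the OHP arrays, a rise of 2.92 ± 0.34 in Pt1 (adjusted p = 0.000529) and a fall in OHP (log2 difference -1.75 ± 0.34, adjusted p = 0.0169). LOXL4, a lysyl oxidase that crosslinks collagen, was above background in Pt1 alone, at least 1.90-fold higher than in parental (adjusted p = 0.000242) and OHP cells (adjusted p = 0.000495). PCOLCE2, an enhancer of procollagen cleavage, was at least 1.61-fold lower in both Pt1 and OHP than in parental cells (adjusted p = 0.000137 and 0.000233). Between the resistant lines, TGM2, a transglutaminase, was lower in OHP (log2 difference -1.94 ± 0.47, adjusted p = 0.0368) and PCOLCE higher by 1.84 ± 0.44 (adjusted p = 0.0341). Calls ended with 1 array left out for P3H2 in OHP against parental (parental array 1 or 2, OHP array 1 or 3, adjusted p up to 0.0795), TGM2 (parental array 2, any Pt1 array, OHP array 1, up to 0.137) and PCOLCE (parental array 1 or 3, any Pt1 array, up to 0.137).

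Of 31 matrix proteases and inhibitors, 6 rose and 3 fell in Pt1, and 2 rose and 4 fell in OHP. MMP7, matrilysin, fell by 3.05 ± 0.27 in Pt1 (adjusted p = 9.55e-05) and fell by 2.90 ± 0.27 in OHP (adjusted p = 0.000226). MMP28 was at least 1.26-fold lower in Pt1 (adjusted p = 0.00527) and OHP (adjusted p = 0.0137). PLAU, the urokinase protease, was at least 2.26-fold higher in Pt1 (adjusted p = 0.000662) and at least 1.94-fold higher in OHP (adjusted p = 0.00261). Its receptor PLAUR rose by 2.20 ± 0.46 in Pt1 (adjusted p = 0.0144), and the tissue plasminogen activator PLAT rose by 2.16 ± 0.24 in OHP (adjusted p = 0.000669). PLAT also rose in Pt1, by 1.27 ± 0.24 (adjusted p = 0.00915), a call named after its value was seen and not followed with arrays left out. Between the resistant lines, ADAMTS1 was lower in OHP (log2 difference -1.25 ± 0.16, adjusted p = 0.00139), MMP9 at least 1.32-fold lower (adjusted p = 0.00550) and MMP15 higher by 0.70 ± 0.15 (adjusted p = 0.0196). Calls ended with 1 array left out for PLAUR (parental array 2 or any Pt1 array, adjusted p up to 0.0682), MMP15 (any Pt1 array, up to 0.0871) and MMP28 in OHP (parental array 3, 0.0501).

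Matrix receptors moved both ways, with 3 of 21 higher and 3 lower in Pt1 and 2 higher and 4 lower in OHP. ITGB3, which pairs with ITGAV to bind vitronectin, rose by 2.87 ± 0.41 in Pt1 (adjusted p = 0.00168) and was lower in OHP than in Pt1 (log2 difference -2.61 ± 0.41, adjusted p = 0.00375). SDC2, syndecan-2, was at least 3.12-fold higher in Pt1 (adjusted p = 2.44e-05) and at least 2.19-fold higher in OHP (adjusted p = 0.000219). CD44, the hyaluronan receptor, fell by 1.75 ± 0.16 in Pt1 (adjusted p = 0.000123) and fell by 0.93 ± 0.16 in OHP (adjusted p = 0.00951), and OHP stood above Pt1 by 0.82 ± 0.16 (adjusted p = 0.0144). In OHP the collagen receptor ITGA2 fell by 3.10 ± 0.32 (adjusted p = 0.000410), and DDR2, a receptor tyrosine kinase for fibrillar collagen, rose by 1.88 ± 0.22 (adjusted p = 0.000852). The higher CD44 level of OHP over Pt1 ended as a call without Pt1 array 1 or 3 (adjusted p up to 0.0679) and with its probes averaged (adjusted p = 0.178).

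Of 10 other genes of the reelin pathway, FYN, a kinase that phosphorylates DAB1, rose by 1.04 ± 0.25 in Pt1 (adjusted p = 0.0263), and NDEL1 was lower in OHP than in Pt1 (log2 difference -0.65 ± 0.14, adjusted p = 0.0226). In OHP against parental 0 of the 10 passed, with 2 at an unadjusted p under 0.05. Of 15 TGF-beta pathway genes, 2 rose and 1 fell in Pt1 and 3 rose in OHP. The ligand TGFB3 was at least 3.25-fold higher in Pt1 (adjusted p = 0.000165) and at least 1.59-fold higher in OHP (adjusted p = 0.0117), and the inhibitory SMAD7 at least 4.50-fold (adjusted p = 5.59e-05) and at least 1.74-fold (adjusted p = 0.0143). BAMBI, a decoy receptor, fell by 0.94 ± 0.18 in Pt1 (adjusted p = 0.00852) and rose by 0.87 ± 0.18 in OHP (adjusted p = 0.0206). Between the resistant lines, OHP was lower in SMAD7 (log2 difference -1.56 ± 0.23, adjusted p = 0.00251) and TGFB3 (-1.21 ± 0.25, adjusted p = 0.0188) and higher in the signal transducer SMAD2 by 0.90 ± 0.18 (adjusted p = 0.0137). Between them TGFB3 lost its call without any 1 Pt1 array or OHP array 1 (adjusted p up to 0.0905), and SMAD2 without Pt1 array 2 or 3 (up to 0.0680) or with probes averaged (0.457). Calls ended with 1 array left out for FYN (parental array 2 or 3 or any Pt1 array, adjusted p up to 0.105), NDEL1 (any Pt1 array or OHP array 3, up to 0.0959) and, in OHP against parental, TGFB3 (parental array 3, 0.0615), SMAD7 (any parental array, up to 0.0622) and BAMBI (parental array 2 or 3 or OHP array 3, up to 0.0909). The SMAD7 call in OHP against parental also ended with its probes averaged.

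**Figure D3:**
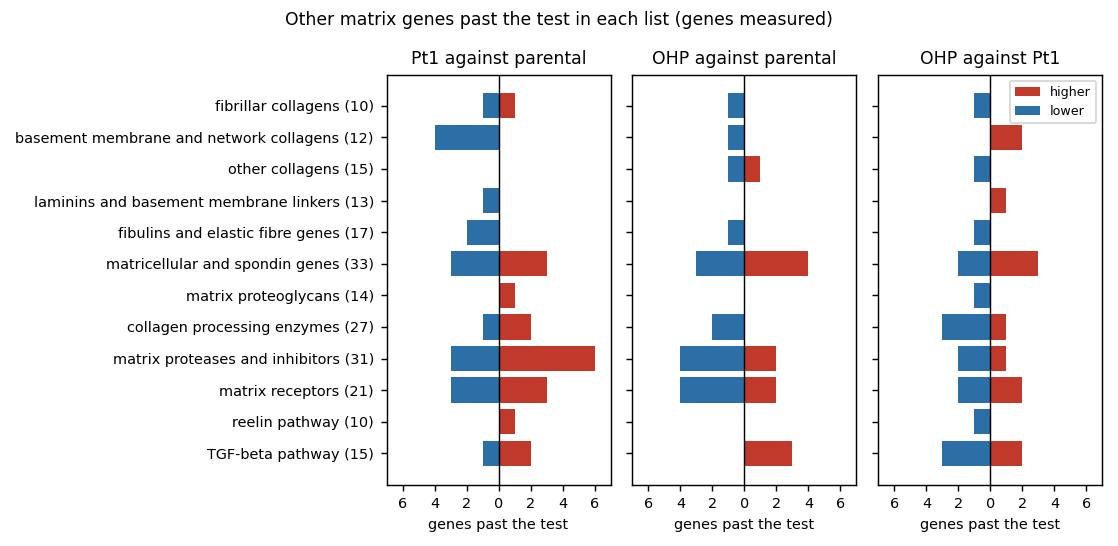
Number of other matrix genes past the test in each of 12 lists, with the genes measured in brackets, for the 3 comparisons. Red bars to the right count genes higher in the first-named line and blue bars to the left genes lower. Proteases and inhibitors hold the most calls in Pt1 against parental, 6 higher and 3 lower.

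**Figure D4:**
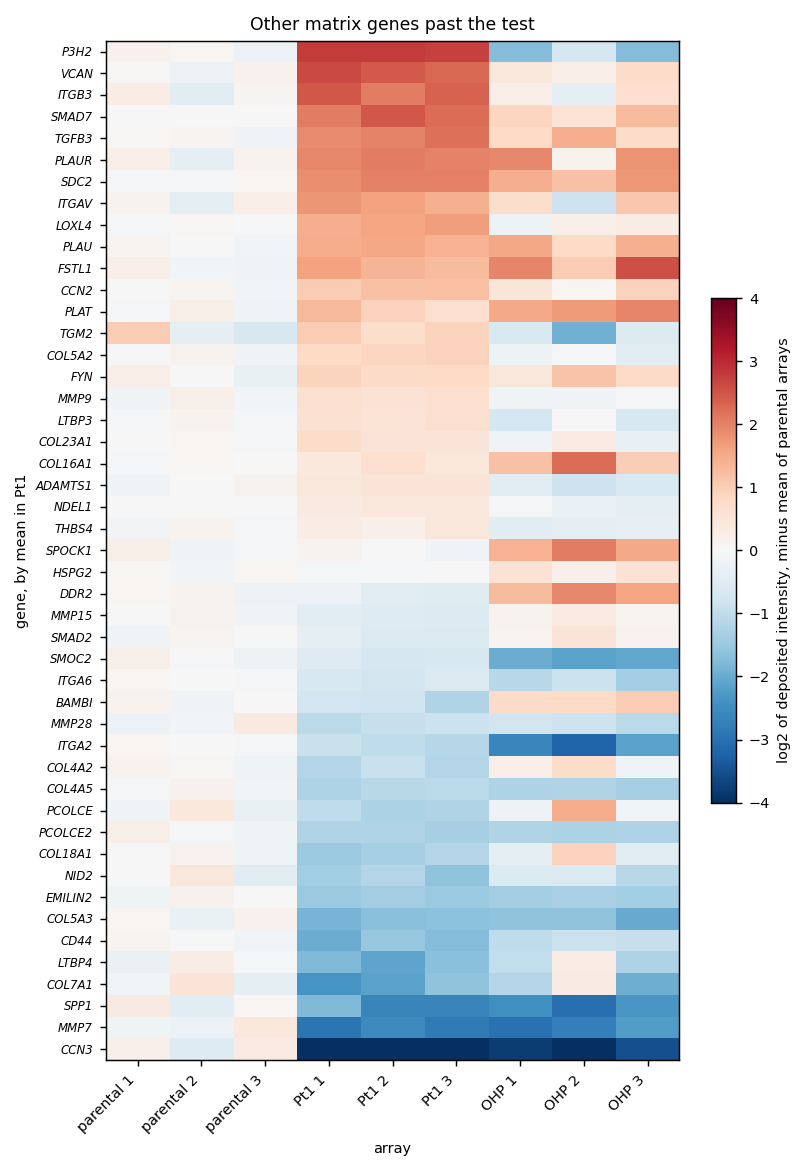
Log2 of the deposited intensity of the 47 other matrix genes named by rule, minus the mean of the parental arrays, on the 9 arrays. Genes are ordered by their mean in Pt1, from P3H2 to CCN3. Values past 4 in size are drawn at the end of the colour scale, and OHP array 2 differs from OHP arrays 1 and 3 for genes such as COL18A1, COL7A1 and PLAUR.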

How the data were processed

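Total RNA of 9 samples was hybridized as biotinylated cRNA to Illumina arrays, per the labels' protocols. The deposited intensity values (48803 probes, linear scale) were made with BeadStudio, per the submitters' processing notes (no version given). From the values, they are quantile normalized (sorted arrays differ by at most 1.08%) and not background subtracted. A second table, of 9 signal and 9 detection columns whose array names no label pairs with a sample, was not used. For the test, normexp with offset 50 and log2 were applied with limma 3.58.1 in R 4.3.3. Of the probes, 28098 had 1 gene symbol, 13 several and 20692 none, and symbols were updated through gene IDs of GRCh38.p14 (18826 symbols found). The brightest probe stood for each of 18852 genes. lmFit and eBayes used all 9 arrays (6 residual and 3.47 prior degrees of freedom), and calls are adjusted p under 0.05 (Benjamini-Hochberg, all genes, 2-sided). SE is from that fit. Where no array of a line exceeded the ceiling, the fold is a bound, the geometric mean of the brighter line over the ceiling.

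Members and lists were chosen with earlier results of these data known. Named genes are all members and partners, up to 4 called genes per list and comparison, with all arrays of the brighter line above the ceiling, and the 3 genes most like each member. Deviations of same-numbered arrays from their line means correlated at 0.126, 0.671 and 0.502 between OHP and parental arrays, at -0.004 to 0.182 between Pt1 and parental and at -0.192 to 0.021 between OHP and Pt1. The numbers were thus treated as possible pairs of OHP with parental arrays, from these values and not from the labels, and of no other lines. Deviations of differently numbered arrays were not compared, and deviations within a line cancel out. The values therefore cannot show that the numbers pair arrays. The fit has no block, and the closing section gives the fit with one. Alternatives were other background correction and normalization, a filter on dim genes, probe averaging, array weights, a replicate block, fits on 2 lines and leaving out each array. In simulated data with known changes (Pt1 against parental, 18852 genes), shifts of 0.5, 1, 2 and 3 on the log2 scale were recovered for 2%, 46%, 90% and 98% of 50 genes each, with 4 false calls. The simulated noise was independent, with the same spread on every array for a gene, so no array stood apart as OHP array 2 did. The rates hold for that setting only. Plots used Python 3.11.15 and matplotlib 3.10.9.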

Additional observations from a re-analysis of the deposited data

Results flagged for a closer look

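Among the matrix genes, 2 changed in opposite directions in the resistant lines, each past the test in all 3 comparisons, the last of which tests the difference itself. P3H2 had log2 differences of 2.92 for Pt1 against parental, -1.75 for OHP against parental and -4.67 for OHP against Pt1 (adjusted p = 2.66e-05 for the last). BAMBI had log2 differences of -0.94, 0.87 and 1.81 in the same order (adjusted p = 0.000192 for the last). In OHP against parental, both calls ended with some single arrays left out and with only the 2 lines compared. The adjusted p of limma's test there reached 0.0927 for P3H2 and 0.0909 for BAMBI. P3H2 was at or under the ceiling on OHP arrays 1 and 3, so its OHP values rest partly on background.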

How the results depend on the processing

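The differences of the 9 members kept within the spread between replicates in 413 of 426 combinations of comparison and setting, and the other 13 came from leaving out normexp or averaging the probes of a gene. In the OHP comparisons that spread includes OHP array 2, so the count is a weak guide to leaving it out. Without that array SPARC went from 2.23 to 3.02 in OHP against parental. COL6A2 went from 0.41 to -0.06 in OHP against Pt1, and both were counted as kept. None of the members past the test changed sign. Of 94 calls on named genes, 64 held under every setting and 30 ended under at least 1, and ITGA6 in Pt1 against parental turned to 0.0148 with probes averaged.

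Counts over all genes were highest, among the arrays left out, without OHP array 2. In the order Pt1 against parental, then OHP against parental, then OHP against Pt1, the genes called numbered 1863, 1020 and 1430, and 4834, 2565 and 3307 with array weights and 4882, 481 and 847 with only the 2 lines compared. With 1 array left out they ran from 1039 to 4877, from 590 to 3148 and from 733 to 2297. Other matrix genes called numbered 38, 29 and 29, and 76, 55 and 55 with array weights and 73, 16 and 19 with only the 2 lines compared. With 1 array left out they ran from 26 to 75, from 19 to 62 and from 18 to 45. With the replicate number as a block, 2095, 1021 and 1598 genes and 41, 27 and 34 other matrix genes were called, so the block moved no count by over 1.5 times. For OHP against parental the numbers were treated as possible pairs, which the values cannot show. There the block changed no call on a member or on a gene named by the rule. Calls on genes named outside that rule, such as FSTL1 and CD44, were not followed under the block. The block also applied the numbers to the Pt1 arrays, which they were not taken to pair. The remaining settings left every count within 1.5 times. With the ceiling at the 99 percentile (409.54), fewer genes lay above it, 9198 to 9384 per array. Signal near the ceiling limits FBLN2, SPARC and the resistant-line values of RELN, of which only bounds or fitted values resting on background are known.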
